A study of Mus musculus and Ochotona curzoniae and Rattus norvegicus with 18 samples.

Results

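The genes described here are 37 genes of the lysosome, chosen by symbol from the deposited tables of pika and mouse fibroblasts: 11 proteases, 9 glycosidases, 5 sulfatases, 6 lipid enzymes and lipid-handling partners, and 6 membrane proteins. They are 37 of the 14418 genes that could be joined by symbol between the species. The lysosome is the acidic compartment in which proteins, glycans, sulfated sugars and lipids are broken down, each by its own soluble hydrolase, while proteins of the limiting membrane protect it, carry products out and conduct ions. Most hydrolases are tagged with mannose 6-phosphate in the Golgi and carried to the lysosome by receptors, and many of their genes share a palindromic promoter element, named CLEAR, that is bound by TFEB and its relatives. In skin, fibroblasts use cathepsins and glycosidases to turn over collagen and proteoglycans taken up from the matrix.

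The series holds 12 RNA-seq libraries, 3 each from cultured fibroblasts of the Tibetan pika (Ochotona curzoniae), the C57BL/6J mouse, the SD rat and the White New Zealand rabbit, and its stated aim for the RNA is the level of core clock genes across species. A further 6 ChIP-seq samples are not analysed here. The comparison was between the 3 pika and the 3 mouse libraries, since no table used here gives symbols for the identifiers of the other two species. All 6 came from untreated cells labelled epidermis as tissue, with no age, sex or animal given, kept in DMEM with 10% serum under 5% CO2 and lysed at 90% confluency. Whether libraries of one species stem from different animals or dishes is not stated, and every p-value is relative to the variation among these libraries, possibly technical only.

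The pika libraries held 7703576 to 8481030 reads and the mouse libraries 3663102 to 5758950, as worked out from the steps of the deposited FPKM (fragments scaled by the length of the gene model and by library size). COL1A1, the major fibroblast collagen chain, lay between 4638 and 4896 rescaled FPKM in all 6 libraries. On the deposited FPKM it was 2145 to 2259 in pika and 891 to 916 in mouse. Some other fibroblast markers differed widely. Means in pika and mouse were 22.9 and 954.8 for COL3A1, 3.47 and 65.1 for PDGFRA, 1.04 and 89.6 for POSTN, and 41.7 and 1.23 for FAP. COL1A1 and the keratin genes KRT5 and KRT14 are named outside the rule for list genes. KRT5 and KRT14 were listed at 0 in pika and did not pass 0.661 in mouse. Other genes on the keratinocyte list were present, PERP and PKP1 at means of 70.4 and 26.7 in pika, and DSP and SFN at means of 45.2 and 10.8 in mouse. Levels are given as rescaled FPKM, in which the joined genes of a library sum to 1000000. The joined genes held 87.1% of the deposited FPKM in each pika library and 37.0% to 38.3% in mouse, where the 10 most abundant rows alone took 39.1% to 41.0%. Rescaling therefore multiplied pika values by 2.16 to 2.17 and mouse values by 5.25 to 5.37. In bulk RNA, fewer cells of a type and less RNA per cell cannot be told apart.

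The CLEAR element is built around the E-box CACGTG, the same core that the clock factors CLOCK and BMAL1 bind, and the mouse promoters below show how it sits in genes of this set that were called lower in pika and in genes that were not called. Capitals mark the E-box, or a longer palindrome around it where the flanking bases are also present. The stretches are from RefSeq for GRCm38.p6, 5′ to 3′ on the strand of the gene, all upstream of an annotated start. For Cln3 that start is an internal one. The gene spans chr7:126571207-126585817, so the printed stretch lies within it.
Lamp1, chr8:13159086-13159159, plus strand: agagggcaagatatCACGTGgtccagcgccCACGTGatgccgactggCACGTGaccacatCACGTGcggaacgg
Ctsd, chr7:142387903-142387942, minus strand: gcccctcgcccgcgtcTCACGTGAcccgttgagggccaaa
Gla, chrX:134601181-134601245, minus strand: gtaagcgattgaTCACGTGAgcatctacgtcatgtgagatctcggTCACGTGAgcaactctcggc
Mcoln1, chr8:3500434-3500493, plus strand: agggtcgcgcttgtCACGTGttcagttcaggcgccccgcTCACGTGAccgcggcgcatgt
Cln3, chr7:126583337-126583396, minus strand: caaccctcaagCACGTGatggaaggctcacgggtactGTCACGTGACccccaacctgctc

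Lamp1 carries 4 E-boxes within 74 bases, and Gla carries 2 copies of the longer palindrome. Of the 37 genes, 31 had a promoter in the RefSeq table, read from 250 bases before the start to 50 after it; CTSB, CTSH, GALNS, ASAH1, NPC1 and HGSNAT are not in that table. CACGTG, which reads the same on both strands, was present in 11 of 34 promoters of these 31 genes (32.4%), against 7.15% of 32851 mouse promoters of the same length. The 8-base palindrome TCACGTGA, which contains it, was present in 14.7% against 0.974%. The 11 genes are ARSA, CLN3, CTSA, CTSD, CTSF, GAA, GLA, LAMP1, MCOLN1, NAGLU and SGSH. These shares describe letters in a window, with no test of binding, and no pika promoter was read.

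Measured against the joined transcriptome, the set lay lower in pika. Of the 37 genes, 19 were lower in pika and 2 were higher, CTSC and IDS, while 16 did not pass both the adjusted p of 0.05 and the log2 fold change of 1 that define a call. Among all 10348 genes tested, 23.5% were called lower and 28.7% higher, whereas the lower calls made up 51.4% of the set and the higher calls 5.41%. Calls in either direction covered 52.2% of all genes. By adjusted p alone 31 of the 37 differed, against 88.6% of all genes, and the libraries of the species did not overlap in 31 of the 37, against 89.0%, so neither count sets the group apart. The median log2 fold change (pika over mouse) was -1.13 over the 37 genes and 0.21 over all genes, and 32 of the 37 lay below the median of all genes. The summed level of the set was 4332, 4294 and 4349 rescaled FPKM in the 3 pika libraries and 10537, 10701 and 10612 in the 3 mouse libraries. All 37 passed the filter of a mean of 1 FPKM in either species, 34 of them with 1 FPKM or more in every library.

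The direction of this shift is relative to the joined genes. On the deposited FPKM, without rescaling, the sums were nearly equal, 2000, 1992 and 2011 in pika against 1963, 2018 and 2021 in mouse. On that scale 11 genes were called higher (CTSC, IDS, CTSB, CTSO, NEU1, NAGLU, SMPD1, NPC2, NPC1, CLN3 and MCOLN1) and 4 lower, while 58.3% of all genes were called higher and 10.7% lower. The set still lay below the median of all genes by 1.17 there, against 1.34 on the rescaled values. CTSF, CTSS, CTSZ and LAMP1 stayed lower and CTSC and IDS stayed higher on the deposited FPKM, while the other 15 lower calls were lost. Gene models also differed, the mouse model being longer by a median of 2.41 times in the set and 2.26 times over 9157 genes with both lengths.

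**Figure D1:**
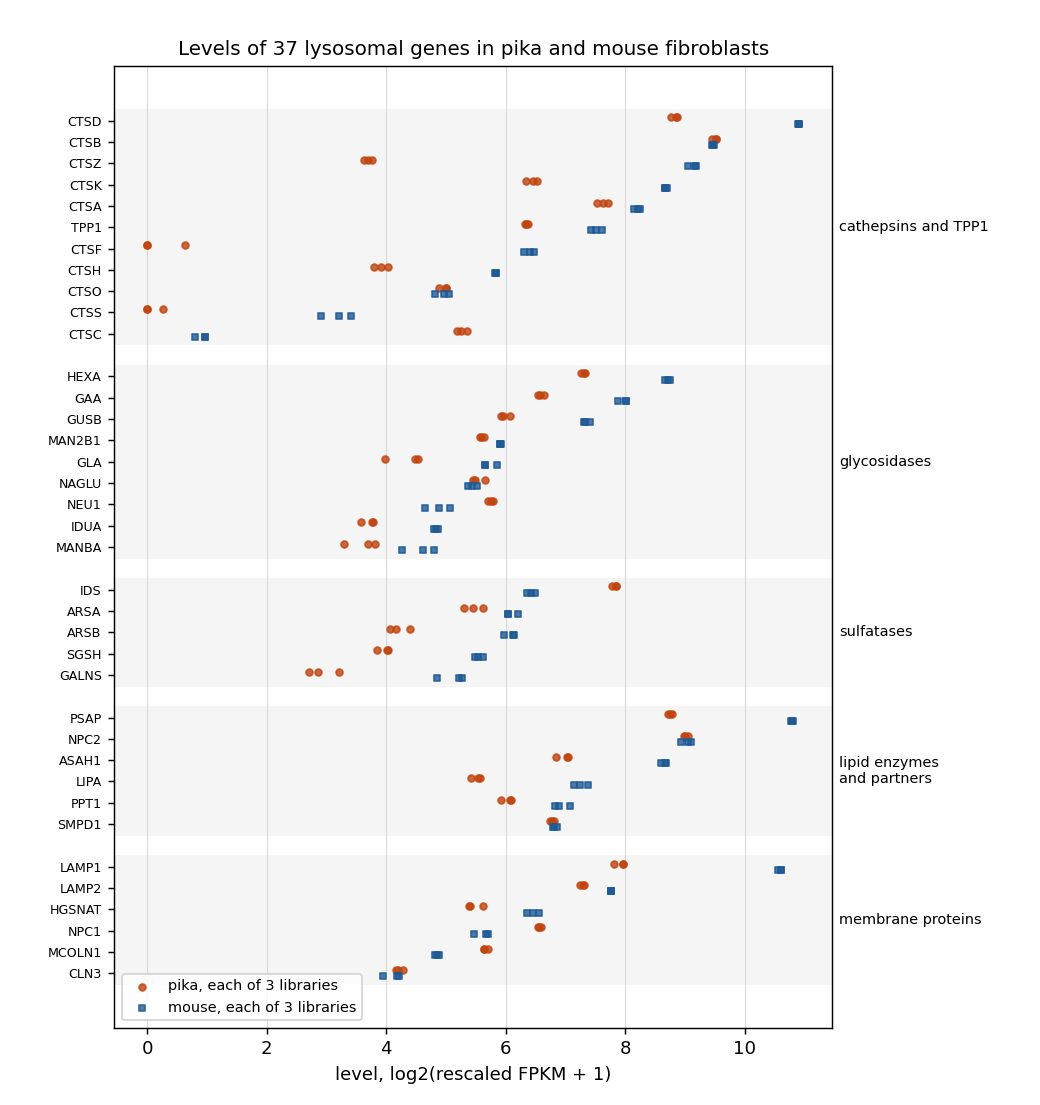
Level of each gene as log2(rescaled FPKM + 1), with 1 circle per pika library and 1 square per mouse library, grouped by role. Mouse squares lie to the right for most genes, the groups overlap in 6, and CTSC, IDS, NEU1, NPC1 and MCOLN1 lie to the right in pika.

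**Figure D2:**
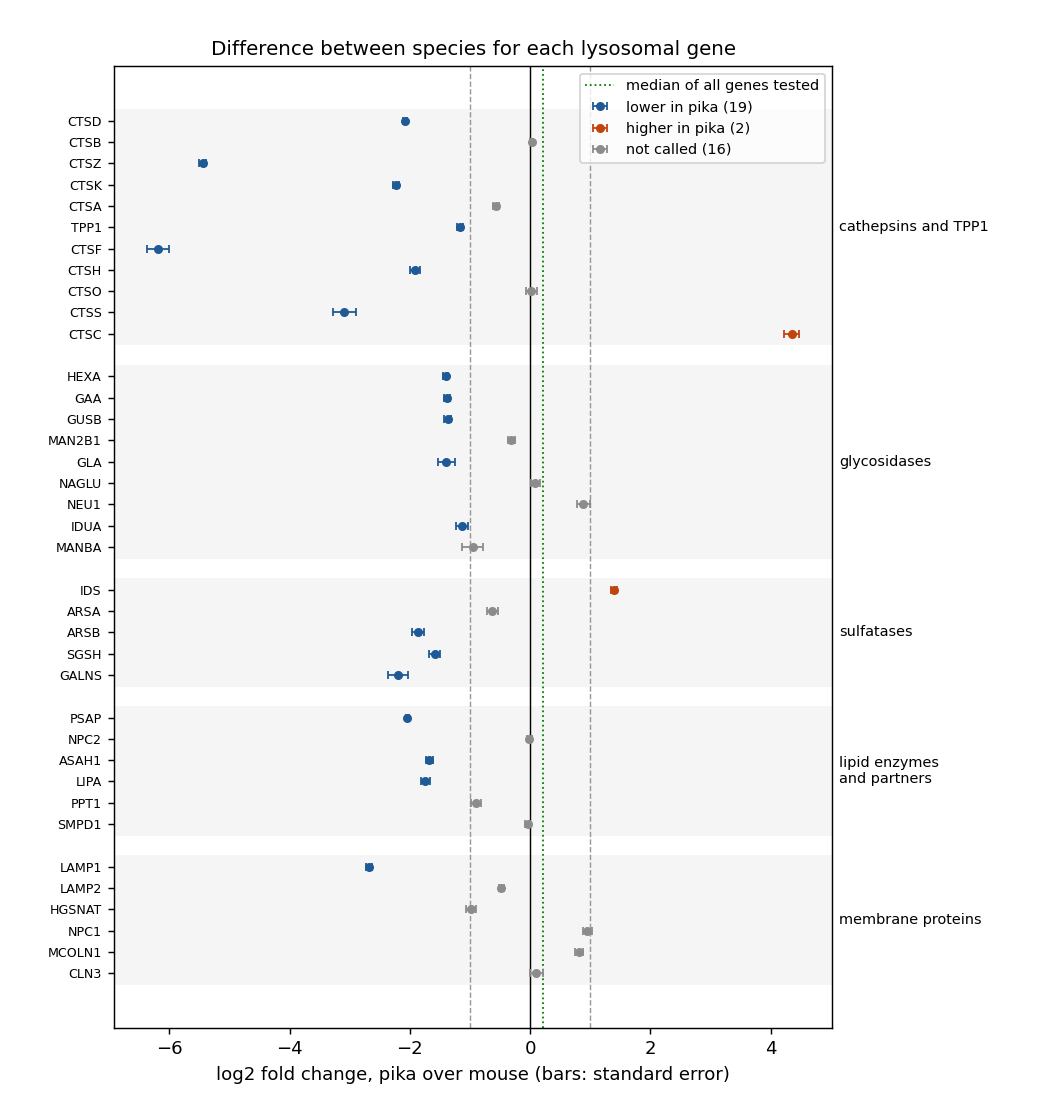
Log2 fold change of each gene, pika over mouse, with bars for the standard error of the limma fit, 3 libraries per species. Dashed lines mark the minimum for a call, and the dotted line marks the median of all genes tested, 0.21; 19 genes are called lower and 2 higher.

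The proteases showed both the most extreme deficits and the one large excess in pika. Of the 10 cathepsins and TPP1, 7 were lower, 1 was higher and 3 were not called, with a median log2 fold change of -1.91. The shares were 63.6% lower and 9.09% higher, against 23.5% and 28.7% of all genes. Cathepsin D, the main aspartic protease of the lysosome, stood at 459.7, 463.3 and 435.8 rescaled FPKM in pika against 1901, 1926 and 1923 in mouse. Every mouse library was above every pika library, and the pika mean was 4.23-fold lower (log2 fold change -2.08, SE 0.03, adjusted p = 2.34e-11). Cathepsin B, the abundant cysteine protease, overlapped between the species, at 730.8, 696.8 and 729.7 in pika against 716.7, 699.6 and 704.7 in mouse (log2 fold change 0.02, SE 0.03, adjusted p = 0.45). CTSB ranked 1 of the 37 genes by level in pika and 4 in mouse, where CTSD ranked 1.

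Cathepsin Z, a carboxypeptidase, showed the widest gap among genes with more than a few reads in both species. Its level was 11.9, 11.4 and 12.6 rescaled FPKM in pika and 583.4, 575.7 and 530.0 in mouse, 47.1-fold lower in pika (log2 fold change -5.44, SE 0.06, adjusted p = 6.87e-12), resting on 123 and 2165 reads. CTSZ took 0.264% to 0.289% of the summed FPKM of the set in pika and 4.995% to 5.54% in mouse, where it ranked 5 of 37 instead of 33. The mouse gene lies at chr2:174427494-174439039 (RefSeq, GRCm38.p6). Cathepsin C, the dipeptidyl peptidase that activates serine proteases of granules, went the other way. CTSC stood at 39.9, 35.4 and 37.1 in pika against 0.963, 0.748 and 0.953 in mouse, a 42.2-fold difference (log2 fold change 4.35, SE 0.13, adjusted p = 1.53e-09), from 789 pika reads and 14 mouse reads. It was the lowest of the 37 genes in mouse, at chr7:88278024-88315861.

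Cathepsins F and S were at the limit of detection in pika. CTSF, a cysteine protease, was listed at 0 in 2 pika libraries and at 0.546 rescaled FPKM in the other, and stood at 84.0, 77.7 and 88.0 in mouse (chr19:4855165-4860918). Its pika value worked out at 1 read and the mouse values at 441, a ratio of 440. The 95% exact binomial interval from 78.6 to 17432 covers counting error only and takes these read counts as given. The pika gene model worked out at 467 bases against 1975 in mouse. With a single pika value above 0, its reads and length are the smallest that fit. Both may be larger by one common whole factor. CTSS, the cathepsin of antigen-presenting cells, was above 0 in a single pika library, at 0.199, and stood at 8.24, 9.60 and 6.52 in mouse. This too worked out at 1 read, with the same limit, against 29, a ratio of 127 with an interval from 21.0 to 5179. Fitted log2 fold changes of -6.19 and -3.09 for these genes depend on the pseudocount.

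Cathepsin K, the collagen-degrading enzyme best known from osteoclasts, stood at 87.2, 79.8 and 91.5 in pika against 406.9, 405.0 and 414.4 in mouse, with no overlap and gene models of almost equal length (1544 and 1512 bases; log2 fold change -2.24). Cathepsin H, an aminopeptidase, was 3.96-fold lower and TPP1, the tripeptidyl peptidase, 2.27-fold lower in pika. CTSA, the protective protein of neuraminidase, did not reach the fold minimum (log2 fold change -0.57, adjusted p = 3.74e-06), and CTSO overlapped between the species at 28.6 to 31.1 in pika and 27.2 to 32.2 in mouse. When reads were not divided by gene length, TPP1, whose pika model is the longer, turned to 0.24, and CTSO turned from 0.02 to -0.78.

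Macrophages express CTSS, CTSC and CTSH strongly, so markers of leukocytes are given beside them. Of 14 macrophage and leukocyte markers, 13 were joined, 6 were listed at 0 in all pika libraries, and their summed level was 15.0 to 16.7 rescaled FPKM in pika and 48.6 to 54.3 in mouse (6.97 to 7.71 and 9.17 to 10.3 on the deposited FPKM). Of the 3 tested, 2 were lower and 1 was not called. The lower share was 66.7% and the higher share 0%, against 23.5% and 28.7% of all genes, with only 3 genes tested. CSF1R, the macrophage growth factor receptor, and CD68, a lysosomal protein of macrophages, were lower in pika (log2 fold changes -2.99 and -1.89, the latter -0.52 and not called without division by gene length). CD14, a monocyte receptor that made up most of the pika sum, was not called, at 10.7, 11.1 and 10.5 rescaled FPKM in pika against 11.3, 6.45 and 6.34 in mouse (log2 fold change 0.43); CD14 and PTPRC were named after their values were seen. PTPRC, the pan-leukocyte marker, was listed at 0 in pika and at 0.102 to 0.158 rescaled FPKM in mouse. The 5 joined osteoclast markers summed to 12.6 to 13.8 rescaled FPKM in pika and 16.3 to 22.5 in mouse, an order that was opposite on the deposited FPKM (5.82 to 6.39 in pika, 3.04 to 4.28 in mouse), with ACP5 higher (1.25; 0.97 without division by gene length) and NFATC1 lower (-1.08) in pika. The part of such cells in the levels of CTSS, CTSC, CTSH and CTSK was not tested.

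Glycosidases, which trim glycans and glycosaminoglycans from their ends, were lower in 5 of 9 genes, higher in none, and not called in 4, with a median log2 fold change of -1.13. Their lower share was 55.6% against 23.5% of all genes, and their higher share was 0% against 28.7%. The first 4 of the 5 lower genes differed by nearly the same factor: HEXA, a subunit of β-hexosaminidase, by 2.66-fold; GLA, α-galactosidase A, by 2.67-fold; GAA, the acid α-glucosidase that degrades glycogen, by 2.63-fold; and GUSB, β-glucuronidase, by 2.61-fold. HEXA stood at 159.5, 157.5 and 153.0 rescaled FPKM in pika against 428.2, 417.8 and 403.2 in mouse. GLA had the widest spread of these in pika, at 22.0, 21.4 and 14.7 against 49.1, 56.8 and 49.5, still without overlap. The fifth, IDUA, α-L-iduronidase, was 2.28-fold lower, with the widest gap in gene model length of the 5 (818 bases in pika and 4204 in mouse). HEXA, GLA, GAA and GUSB also differed in length ratio, from 1.36 for HEXA to 2.58 for GLA. When reads were not divided by gene length, these 4 genes were less alike. Their log2 fold changes were then -0.80 for HEXA, which lost its call, -1.68 for GLA, -1.10 for GAA and -1.11 for GUSB.

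The 4 glycosidases that were not called ran in both directions. NEU1, the sialidase that removes terminal sialic acid, was above mouse in every pika library, at 51.4, 54.5 and 53.2 against 24.2, 32.6 and 28.5, short of the fold minimum (log2 fold change 0.89, adjusted p = 2.67e-05) but called on the deposited FPKM, at 2.01. NAGLU, the N-acetylglucosaminidase of heparan sulfate, overlapped, at 49.4, 43.0 and 43.7 in pika against 40.3, 42.5 and 45.0 in mouse (log2 fold change 0.09, adjusted p = 0.321). The mannosidase MAN2B1 had a log2 fold change of -0.31. MANBA, β-mannosidase, had one of -0.95, near the fold minimum, and was called lower in 8 of 16 other settings, among them without pika replicate 1 (-1.06), pika replicate 2 (-1.0016) or mouse replicate 1 (-1.10). NEU1 and CTSA act in one complex, in which CTSA shields the sialidase, and their log2 fold changes were 0.89 and -0.57.

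Among the sulfatases, which strip sulfate from glycosaminoglycans and sulfatide, IDS stood apart. IDS, iduronate 2-sulfatase (mouse gene at chrX:70343069-70385834), was at 228.6, 228.4 and 217.4 rescaled FPKM in pika against 89.0, 85.1 and 80.7 in mouse. All pika libraries were above all mouse libraries, 2.65-fold on the means (log2 fold change 1.39, SE 0.05, adjusted p = 4.79e-09), and IDS ranked 6 of the 37 genes in pika and 19 in mouse. The call was lost without division by gene length, at 0.69, the mouse model being 3.37 times as long. GALNS, which acts on keratan sulfate and chondroitin 6-sulfate, was 5.08-fold lower in pika, at 6.25, 5.52 and 8.27 against 27.8, 37.7 and 36.3. ARSB, which acts on dermatan sulfate, was 3.79-fold lower, and SGSH, heparan sulfamidase, was 3.13-fold lower. ARSA, the sulfatide sulfatase, was not called (log2 fold change -0.63). With IDS offsetting the rest, the summed level of the 5 sulfatases was 296 to 314 rescaled FPKM in pika and 295 to 302 in mouse. This near equality is one of rescaled values. On the deposited FPKM the log2 fold changes were 2.63 for IDS and 0.62 for ARSA. They were -0.57 for ARSB, -0.86 for GALNS and -0.31 for SGSH.

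Heparan sulfate is degraded stepwise by IDS, IDUA, SGSH, HGSNAT and NAGLU among others, and these did not move together. IDS was higher, IDUA and SGSH were lower, and NAGLU overlapped. HGSNAT, the membrane acetyltransferase of the pathway, stood at 48.2, 40.7 and 41.4 in pika against 86.9, 81.0 and 92.8 in mouse, at the edge of a call (log2 fold change -0.99, adjusted p = 2.1e-06; -1.06 without pika replicate 1 and -1.03 without mouse replicate 2, both called).

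Genes for lipid breakdown were lower in 3 of 6, higher in none and not called in 3, with a median log2 fold change of -1.29. The lower share was 50% against 23.5% of all genes, and the higher share was 0% against 28.7%. PSAP, the precursor of the saposins that present sphingolipids to their hydrolases, stood at 418.8, 428.1 and 439.6 rescaled FPKM in pika against 1746, 1770 and 1787 in mouse, 4.12-fold lower (log2 fold change -2.04, SE 0.03, adjusted p = 1.81e-11). Its gene models were close in length, 2271 and 2744 bases. LIPA, the acid lipase of cholesteryl esters and triglycerides, was 3.41-fold lower, and ASAH1, acid ceramidase, was 3.21-fold lower. NPC2, the soluble carrier of cholesterol, was at 511.2, 504.3 and 531.4 in pika against 489.9, 544.8 and 529.2 in mouse, and the groups overlapped (log2 fold change -0.01, SE 0.04, adjusted p = 0.756). SMPD1, acid sphingomyelinase, also overlapped, at 106.3 to 111.4 in pika and 110.1 to 114.8 in mouse. PPT1, which removes fatty acids from proteins, had a log2 fold change of -0.90 and was called lower with median-of-ratios scaling (-1.07), with TMM-style scaling (-1.01) and without division by gene length (-1.39).

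The near equality of NPC2 depended on both gene length and rescaling. Its model worked out at 607 bases in pika and 3261 in mouse, the widest ratio of the set (5.37), and without division by length its log2 fold change was -1.39. CTSB had a length ratio of 4.65 and a value of -1.14 without length. On the deposited FPKM both were called higher in pika, NPC2 at 1.27 and CTSB at 1.31. Only 5 of the 37 genes had models of nearly equal length, here a mouse over pika ratio between 0.8 and 1.25 (CTSK, CTSS, NAGLU, LIPA and PSAP), and a comparison limited to genes of that kind was added after the lengths were seen. There 4 of the 5 were lower and none was higher, against 30.7% lower and 17.3% higher over 1300 genes.

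**Figure D3:**
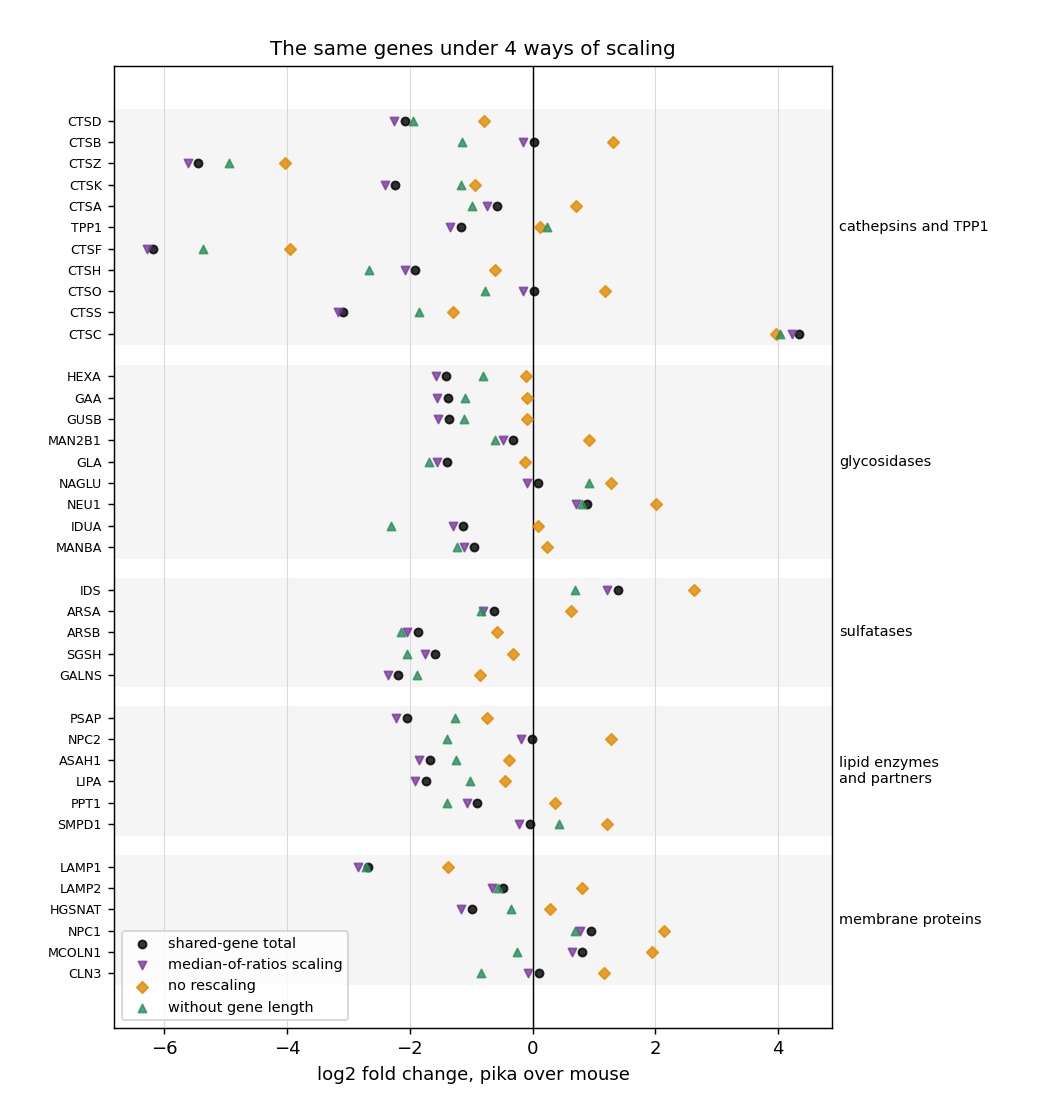
Log2 fold change of each gene, pika over mouse, under 4 scalings: the shared-gene total, median-of-ratios factors, the deposited FPKM without rescaling, and reads not divided by gene length. The deposited FPKM moves all genes except CTSC to the right; CTSC, CTSF, CTSS, CTSZ and LAMP1 keep their side and size of 1 or more under all 4.

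Among the membrane proteins 1 of 6 genes was lower and none higher, with a median log2 fold change of -0.19. The lower share, 16.7%, was below the 23.5% of all genes, and the higher share was 0% against 28.7%. Their summed level was 588 to 608 rescaled FPKM in pika and 1895 to 1961 in mouse, most of the gap coming from LAMP1. LAMP1, the glycoprotein that lines the inner face of the limiting membrane (chr8:13159161-13175338), accounted for the call. It stood at 222.9, 249.0 and 249.7 rescaled FPKM in pika against 1500, 1561 and 1557 in mouse, 6.40-fold lower (log2 fold change -2.67, SE 0.05, adjusted p = 6.37e-11). LAMP2, its paralog and the receptor of chaperone-mediated autophagy, was at 155.4, 151.1 and 157.9 against 215.6, 215.2 and 216.5, without overlap but under the fold minimum (log2 fold change -0.48). On the rescaled values both lay below mouse in every pika library, by unequal amounts. On the deposited FPKM LAMP2 was 71.7, 70.1 and 73.0 in pika against 40.2, 40.6 and 41.2 in mouse. Its log2 fold change there was 0.80, while that of LAMP1 was -1.38.

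NPC1, which moves cholesterol out of the lysosome, and MCOLN1, its calcium release channel, lay above mouse in every pika library without reaching a call on the rescaled values; on the deposited FPKM both were called higher, at 2.14 and 1.94. NPC1 was at 95.8, 92.7 and 91.5 in pika against 51.0, 43.1 and 49.8 in mouse (log2 fold change 0.95, adjusted p = 1.06e-06). MCOLN1 was at 48.8, 51.0 and 49.0 against 27.1, 28.6 and 27.7 (log2 fold change 0.81, adjusted p = 2.18e-06), with a direction that turned to -0.25 without division by gene length. CLN3, mutated in juvenile Batten disease, overlapped at 17.0 to 18.4 in pika and 14.5 to 17.5 in mouse. Of the promoters printed above, those of Lamp1, Ctsd and Gla belong to genes lower in pika, and those of Mcoln1 and Cln3 to genes that were not called. Of the 11 genes with CACGTG, 6 were lower, none higher and 5 not called (median -1.38). Of the 20 without CACGTG, 10 were lower, 2 higher and 8 not called (median -1.04). In the whole set of 37 genes 51.4% were lower and 5.41% higher, against 23.5% and 28.7% of all genes. Whether the calls depend on CACGTG was not tested.

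Ratios between genes of one library do not depend on how that library was scaled. The pairs were picked after their values were seen, and an exact two-sided permutation test of 3 against 3 libraries gave p = 0.1 for each of 4 ratios, the smallest it allows (0.1 after adjustment). CTSB over CTSD was 1.59 ± 0.09 in pika and 0.369 ± 0.007 in mouse (FPKM, SD, n = 3). On reads, with no division by length, it was 1.23 to 1.37 against 0.732 to 0.760, still above 1 in pika and below 1 in mouse. LAMP2 over LAMP1 was 0.645 ± 0.046 in pika and 0.140 ± 0.003 in mouse, and 2.10 to 2.41 against 0.492 to 0.513 on reads. NPC2 over PSAP was 1.20 ± 0.02 against 0.295 ± 0.014 on FPKM, but 0.315 to 0.326 against 0.333 to 0.366 on reads, where the order of the species was turned and the gap small. The ratio of the 37 genes to 15 subunits of the proton pump was 1.65 ± 0.03 in pika and 3.83 ± 0.12 in mouse, and 1.93 to 2.00 against 4.04 to 4.22 on reads.

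**Figure D4:**
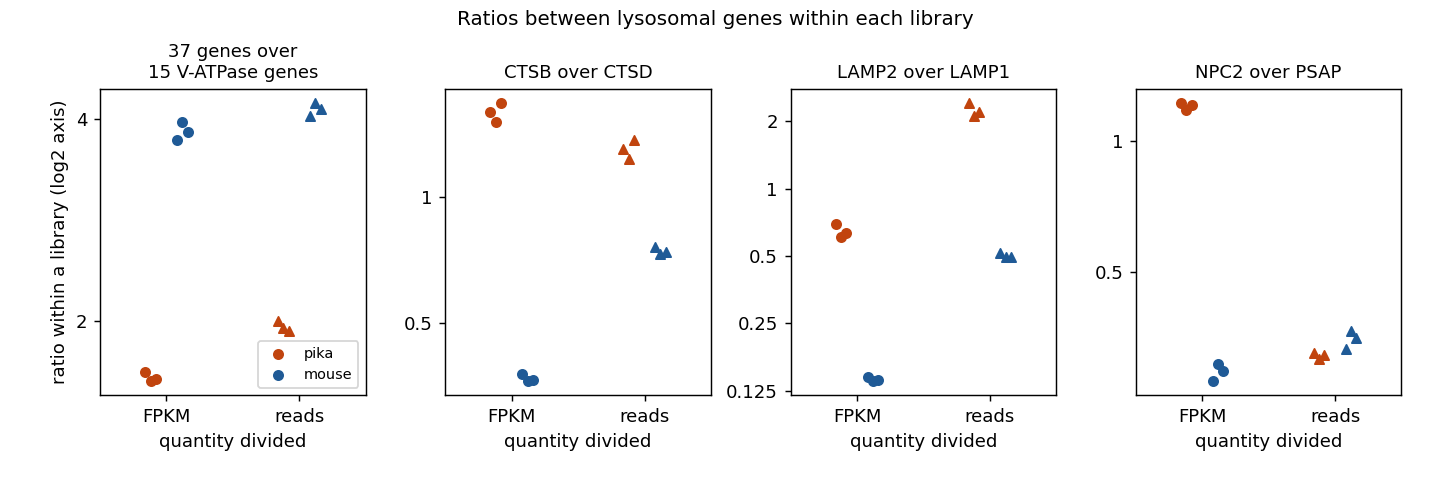
Ratios within each library on a log2 axis, from FPKM (circles) and from reads not divided by gene length (triangles), 3 libraries per species. The species are apart in all panels on FPKM; on reads they stay apart widely in 3 panels and come close for NPC2 over PSAP.

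The machinery around the hydrolases was read from lists of pathway genes. The V-ATPase, which pumps protons into the lysosome, had 15 subunits and accessory proteins tested, of which 3 were lower, 1 was higher and 11 were not called (median log2 fold change -0.25). The lower share, 20%, was near the 23.5% of all genes, and the higher share was 6.67% against 28.7%. Its summed level was 2576, 2637 and 2652 rescaled FPKM in pika and 2834, 2708 and 2776 in mouse. ATP6V0C, the proteolipid of the membrane ring, was higher (1.48). ATP6V0A2 (-1.34), ATP6AP1 (-1.08) and ATP6V1D (-1.05) were lower, the last at -0.997 and not called without mouse replicate 3. Without division by gene length, ATP6V0C turned to -0.32, and ATP6AP1 (-0.64) and ATP6V1D (-0.0723) were not called.

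Delivery of enzymes had 12 genes tested, 3 higher, 3 lower and 6 not called (median -0.31). These shares, 25% in each direction, were near the 28.7% higher and 23.5% lower of all genes. SORT1, sortilin, a receptor that carries prosaposin and other cargo to the lysosome independently of mannose 6-phosphate, stood at 216 ± 1.41 rescaled FPKM in pika and 10.4 ± 1.67 in mouse (SD, n = 3; log2 fold change 4.26). SUMF1, the enzyme that activates all sulfatases, was lower (-2.34), as was CLN6, an endoplasmic reticulum protein of enzyme export (-1.36). The Golgi adaptor GGA3 was higher (1.42; 0.97 and not called without division by gene length). The remaining calls, named after they were seen, were GGA2, higher at 1.31, and IGF2R, the large mannose 6-phosphate receptor, lower at -1.11.

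Regulators were 16 genes of the MiT/TFE family and of mTORC1 at the lysosome, with 3 higher, 1 lower and 12 not called (median -0.13). The shares were 18.75% higher and 6.25% lower, against 28.7% and 23.5% of all genes. TFEB, the best studied activator of CLEAR genes, was at 23.2, 23.5 and 21.2 rescaled FPKM in pika against 4.11, 4.09 and 3.71 in mouse (log2 fold change 2.25, SE 0.12, adjusted p = 6.92e-08). RRAGD, a Rag GTPase, was at 58.0 ± 1.37 against 4.63 ± 1.11 (log2 fold change 3.41), and TFEC, a further family member, was higher at 1.76 (0.63 and not called without division by gene length). TFE3 (0.35) and MITF (-0.32) were not called, and FNIP2, a partner of folliculin, was lower (-1.22). Transcript level says nothing about whether TFEB is in the nucleus, which these data did not measure.

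Cystatins inhibit cathepsins. CSTB was lower in pika, at 173, 183 and 173 rescaled FPKM against 482, 500 and 503 (log2 fold change -1.49), CST6 was too low to test, and CST3 was not in the joined table. Of 21 other lysosomal enzymes and membrane proteins tested, 10 were lower, 1 was higher and 10 were not called, with a median of -0.77. Their lower share was 47.6% and their higher share 4.76%, against 23.5% and 28.7% of all genes. Among the lower genes were GALC, galactosylceramidase (-3.36), and CD63, a tetraspanin of late endosomes and lysosomes (-2.02). The gene called higher was TMEM175, a potassium and proton channel, at 1.16, named after it was seen. Across the 5 lists, 18 of 65 genes were lower, 8 higher and 39 not called, with a median of -0.46. The lower share, 27.7%, was near the 23.5% of all genes, and the higher share was 12.3% against 28.7%. On the deposited FPKM without rescaling, 26 of the 65 were higher and 3 lower, where 58.3% of all genes were higher and 10.7% lower.

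**Figure D5:**
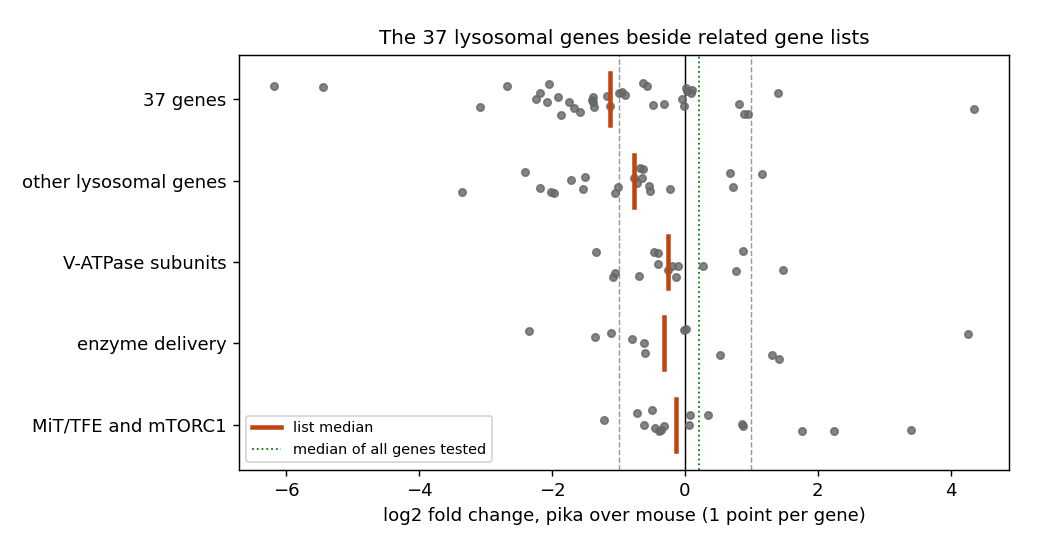
Log2 fold change, pika over mouse, with 1 point per gene, for the 37 genes and 4 pathway lists. Bars mark list medians, which run from -1.13 for the 37 genes and -0.77 for other lysosomal genes to -0.13 for the regulators, and the dotted line marks the median of all genes, 0.21.

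Markers of other cells that a skin culture can hold are given for the whole comparison. The 10 joined keratinocyte markers summed to 42.2 to 47.6 deposited FPKM in pika and 11.7 to 13.02 in mouse, with PKP1 and PERP higher and DSP and SFN lower in pika. Melanocyte markers summed to 14.1 to 16.5 against 0.609 to 1.38, mostly from PMEL. Endothelial markers summed to 0.328 to 0.742 against 6.09 to 7.31, mostly from TEK. In rescaled FPKM the keratinocyte sums were 91.0 to 103.0 in pika and 62.8 to 69.1 in mouse. The melanocyte sums were 30.4 to 35.8 against 3.23 to 7.41, and the endothelial sums 0.707 to 1.60 against 32.3 to 39.3. Of 10 fibroblast markers tested, 2 were higher, 4 lower and 4 not called, with COL3A1 and POSTN among the lower and FAP among the higher. The fibroblast shares were 20% higher and 40% lower, against 28.7% and 23.5% of all genes. The part of these differences in the levels of the 37 genes was not tested.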

How the data were processed

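RNA was sequenced from cultured fibroblasts, 3 pika and 3 mouse libraries. The authors deposited 1 FPKM value per gene and library. CASAVA 1.9, STAR 2.6.1a, featureCounts and edgeR 3.28.1 are listed, with GRCm38 as the only build, per the submitters' processing notes; which annotation was used per species is not stated there or in the labels. Mouse identifiers were named from a gene table, and 14418 symbols found once in each table were joined. Each library was rescaled to 1000000 over these. Tests covered the 10348 genes whose deposited FPKM averaged at least 1 in pika or in mouse, and used limma-trend (R 4.3.3, limma 3.58.1) after log2(value + 1), two-sided, with Benjamini-Hochberg adjustment over all of them; folds of low genes are understated on this scale. Standard errors are from this fit.

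Reads, gene lengths and totals were worked out from the FPKM steps (tolerance 0.002 reads); 95.7% to 96.3% of each total was recovered, and for some genes both may be underestimated by one common whole factor. Mean chi-square per gene between libraries of a species was 1.35 to 2.93, and no library repeated another. The script was tested on simulated data. The 37 genes and all lists were chosen with earlier results of these data known. Any of the 37 may be named; from other lists, up to 4 called genes of largest fold change, plus TFEB, TFE3, MITF and the cystatins. Some genes that this rule names are not reported here. Scripts ran under Python 3.11.15 with pandas 2.3.3, scipy 1.17.1 and numpy 2.4.6.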

Additional observations from a re-analysis of the deposited data

How the results depend on the processing

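Median-of-ratios and TMM-style scaling, a pseudocount of 0.1, limma without trend, limma-voom on reads with gene length, and leaving out any library each gave 2 of the 37 genes higher and 19 to 22 lower. CTSC, CTSF, CTSS, CTSZ and LAMP1 kept their calls in all 16 other settings each was run in. Without rescaling, 11 of the 37 were higher and 4 lower, 6029 of all genes higher and 1106 lower, and 26 pathway genes higher and 3 lower; the all-gene median moved from 0.21 to 1.29. Calls were 55.0% higher among all genes, 84.5% without rescaling. Without gene length 1 of the 37 was higher. With near-equal gene lengths, where fewer genes could be tested, 0 of 5 were higher and 4 lower, 225 of all genes higher and 399 lower, and 0 pathway genes higher and 3 lower. A filter at 5 FPKM left 1584 of all genes lower. Leaving out 1 library gave 2 to 2 of the 37 higher and 19 to 21 lower, 2940 to 2984 of all genes higher and 2416 to 2443 lower, and 8 to 8 pathway genes higher and 16 to 18 lower. Directions turned as follows, on the log2 scale; the cause was not tested. With TMM-style scaling CTSB was -0.0912, CTSO -0.0924, NAGLU -0.0261 and CLN3 -0.0080, and with median-of-ratios scaling CTSB -0.15, CTSO -0.15, NAGLU -0.0861 and CLN3 -0.0659. Without rescaling CTSA was 0.71, TPP1 0.11, MANBA 0.23, MAN2B1 0.92, IDUA 0.0898, ARSA 0.62, SMPD1 1.21, NPC2 1.27, PPT1 0.37, LAMP2 0.80, HGSNAT 0.28, ATP6AP1 0.21, ATP6V1D 0.23, FNIP2 0.0336, MITF 0.90 and NFATC1 0.0905. Without gene length CTSB was -1.14, CTSO -0.78, TPP1 0.24, SMPD1 0.44, CLN3 -0.83, MCOLN1 -0.25, ATP6V0C -0.32, TFE3 -0.49 and MITF 0.52. With 1 library left out, NPC2 ran from -0.0586 (without mouse replicate 1) to 0.018 (without mouse replicate 2), and CTSO from -0.044 (without mouse replicate 3) to 0.0736 (without mouse replicate 2). Same-numbered libraries did not deviate together (correlations -0.009, 0.048 and 0.009), and the replicate block gave 2 of the 37 higher and 19 lower. Few reads were worked out for CTSF and CTSS in pika (1 each) and for CTSC in mouse (14), and the reason was not tested.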
